A study of Mus musculus with 6 samples.

Results

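The heterogeneous nuclear ribonucleoproteins (hnRNPs) are abundant nuclear proteins that coat newly made RNA. They bind short sequence elements in introns, exons and untranslated ends, and much of what they do is to oppose or assist the spliceosome in the choice of exons; several also take part in RNA export, stability and transport. The 10 genes described here, Hnrnpa1, Hnrnpa2b1, Hnrnpc, Hnrnpd, Hnrnpdl, Hnrnpf, Hnrnph1, Hnrnpk, Hnrnpm and Hnrnpu, were picked by symbol, and all 10 had a row among the 54532 gene IDs of the count files. Total RNA was sequenced from heads of mouse embryos at embryonic day 8.5. The mutant embryos had lost Sf3b4 in the neural crest, a migratory population that forms much of the face, and were compared with Sf3b4 wild-type embryos of the same age. There were 3 mutant and 3 wild-type samples, and for each of them 3 heads that did not yet look abnormal were pooled. By their titles the mutants are homozygous nulls, but both the genotype field and the study's design place the loss in neural crest, and no source used here names the driver of the deletion. SF3B4 is a subunit of the SF3B complex, which helps the U2 particle hold the branch site of introns, so the question put to these genes is whether the hnRNP side of splicing control differs in RNA level in heads whose crest lacks it.

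No member passed the test in mutant against wild-type heads. Of the 10 members 5 had a log2 fold change above 0 and 5 below 0, with a median of -0.01, beside 0.00 over all 14008 genes tested. The members' log2 fold changes ran from -0.15 (Hnrnpu) to 0.20 (Hnrnpc), and all 10 confidence intervals (95%) lay within 1.5-fold either way. In the same fit 6.52% of all genes passed (two-sided quasi-likelihood test of edgeR, with p adjusted after Benjamini and Hochberg and called under 0.05), 2.65% higher and 3.88% lower in mutant heads, that is 371 and 543 genes. The split was 647 higher and 536 lower once trends on exon length and GC content were removed (the length and GC correction). By edgeR 2 of 10 members, Hnrnpc and Hnrnpk, had an unadjusted p under 0.05, beside 23.2% of all genes tested, and DESeq2 and limma-voom called no member either. The mutant and wild-type pools did not overlap for 3 of 10 members, beside 28.3% of all genes tested. Among the 951 genes at or above the level of the lowest member 7.99% passed, 24 higher and 52 lower. The median log2 fold change of these 951 genes was 0.06, and 63.6% of them were above 0. Their mutant and wild-type pools did not overlap for 37.6%. A p above the threshold does not show equal levels; what the data give is the interval, which spanned folds of 0.764 to 1.28 over the 10 genes.

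**Figure D1:**
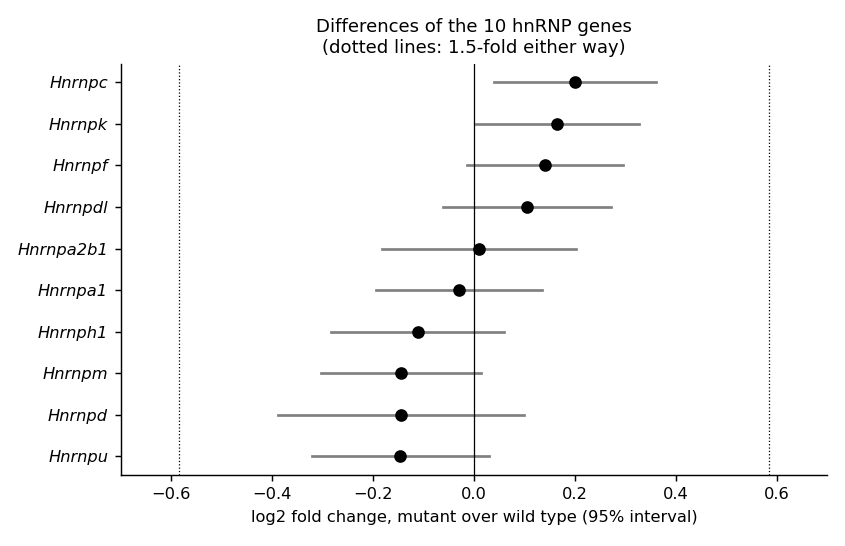
Log2 fold changes of the 10 hnRNP genes (horizontal axis, mutant over wild type), each point with its 95% confidence interval from the fit across all genes. The estimates lie between -0.15 and 0.20, the intervals of Hnrnpc and Hnrnpk alone leave out 0, and none reaches the dotted lines at 1.5-fold.

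The pools held 7420956 to 12251910 counts in mutant heads and 6930827 to 11797020 in wild-type heads. Sf3b4 itself, which the mutant label targets, was at 56.1, 64.2 and 60.9 CPM in mutant pools and 77.7, 72.8 and 63.9 CPM in wild-type pools (CPM, counts relative to TMM-scaled library sizes), which gives a log2 fold change of -0.24 (SE 0.0918) and an adjusted p of 0.128 by edgeR's test. It passed as lower without wild-type replicate 3 (-0.32) and after the length and GC correction (-0.26). Summed neural tube and forebrain markers were at 425 to 473 CPM in mutant and 447 to 480 CPM in wild-type pools, with 1 of 6 higher and 1 lower by the test, and yolk sac markers at no more than 1.35 CPM in mutant and 0.927 CPM in wild-type pools, with no listed marker at 0 throughout. The 8 neural crest markers summed to 259 to 301 CPM in mutant and 368 to 404 CPM in wild-type pools, and 5 of the 8 passed as lower. Summed surface ectoderm markers were at 491 to 550 CPM in mutant and 397 to 438 CPM in wild-type pools, of which 1 of 5 passed as higher, and summed endothelial markers at 218 to 231 CPM in mutant and 182 to 201 CPM in wild-type pools, also 1 of 5. Head mesenchyme markers summed to 185 to 197 CPM in mutant and 191 to 214 CPM in wild-type pools, with 1 of 6 higher and 1 lower by the test. No tested marker passed among primitive erythroid cells (5 of 5 tested) or heart (4 of 5 tested), and none of the 4 yolk sac markers was kept for the test. Primitive erythroid markers summed to 74.3 to 163 CPM in mutant and 98.9 to 250 CPM in wild-type pools. Heart markers summed to 10.8 to 16.7 CPM in mutant and 7.92 to 32.2 CPM in wild-type pools. Their part in any value below was not tested, and in bulk heads fewer cells of a type and less RNA per cell cannot be told apart. One pool of each genotype, mutant replicate 3 and wild-type replicate 1, held 1 count on Y-linked genes, against 580 and 491 in the other mutant pools and 344 and 664 in the other wild-type pools. Whether the pools came from separate litters is not stated, so p-values measure the spread between these pools.

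Together the 10 genes made up 0.801 to 0.832% of the counts in mutant pools and 0.773 to 0.883% in wild-type pools. Their summed level was 8371, 8495 and 8055 CPM in mutant pools and 7639, 8257 and 8971 CPM in wild-type pools. The lowest and the highest sums were both wild-type, and the mutant pools lay between them. Per length of the merged exons, Hnrnpa1 was the most abundant, at 465 ± 11.4 RPKM in mutant and 474 ± 43.4 RPKM in wild-type heads (SD, n = 3 each). Hnrnpk followed at 253 ± 1.69 RPKM in mutant and 226 ± 19.7 RPKM in wild-type heads. Hnrnpu (141), Hnrnpc (138), Hnrnph1 (133), Hnrnpa2b1 (125) and Hnrnpf (113 RPKM, wild-type means) formed a group in which each overlapped its neighbour. Hnrnpdl (82.1), Hnrnpm (68.3) and Hnrnpd (28.9 RPKM, wild-type means) came below, each without overlap with the next. The places depend on the length used: divided by the longest coding transcript, Hnrnpa1 (779) and Hnrnpk (492) stayed ahead in wild-type heads, Hnrnpa2b1 (478), Hnrnph1 (320), Hnrnpu (214) and Hnrnpc (210) followed, Hnrnpf and Hnrnpdl (144 each) tied, and Hnrnpm (138) and Hnrnpd (31.2 RPKM) stayed last. By merged exon length in mutant heads, the first 2 and the last 3 kept the places they had in wild-type heads. Between them came Hnrnpc (159), Hnrnpu (128), Hnrnpa2b1 (126), Hnrnpf (125) and Hnrnph1 (123 RPKM, mutant means). The mutant pools of Hnrnpu, Hnrnpa2b1, Hnrnpf and Hnrnph1 overlapped, so the order among these is not resolved. The annotation lists 5 to 34 transcripts per gene, most for Hnrnpk, with 13 of its 34 annotated as retaining an intron; counts per gene do not tell them apart.

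**Figure D2:**
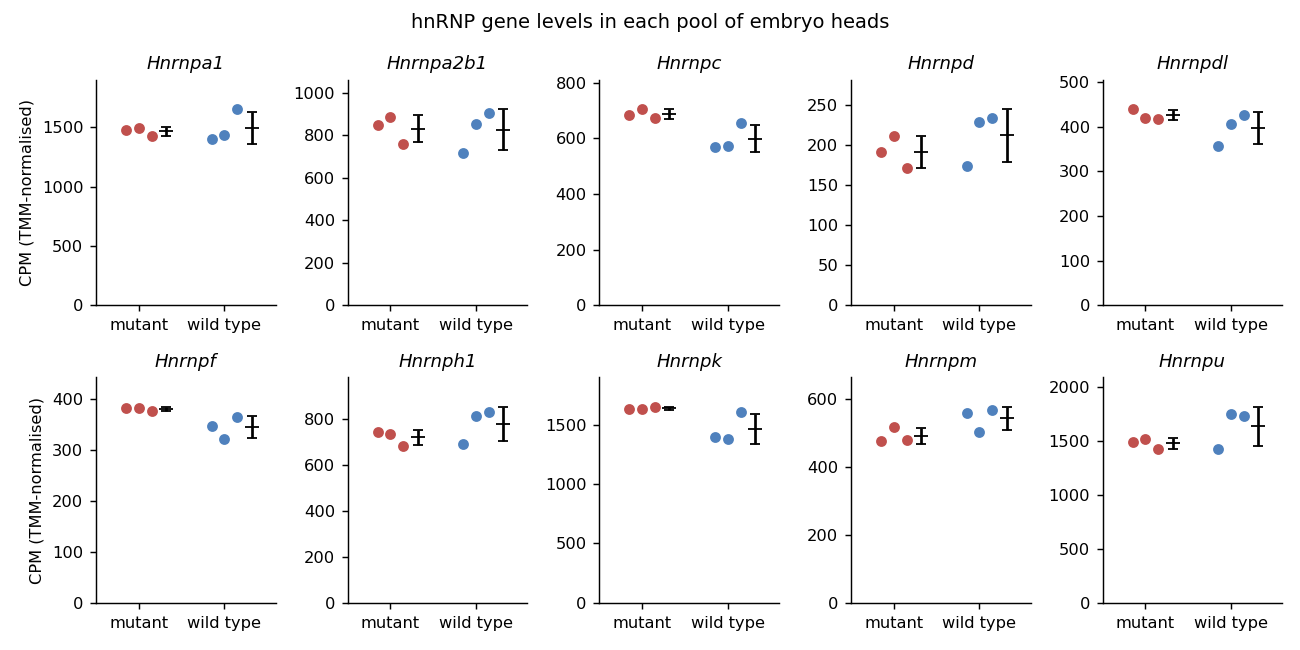
Level of each hnRNP gene in TMM-normalised CPM (vertical axes, from 0) in every pool, mutant left and wild type right; points are pools and bars the mean ± SD of 3 pools. The mutant pools of Hnrnpc, Hnrnpf and Hnrnpk all lie above the wild-type pools, and in each panel the wild-type pools are spread more widely.

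Hnrnpa1 and Hnrnpa2b1 encode the A/B type proteins, with paired RNA recognition motifs and a glycine-rich tail. HNRNPA1 counteracts SR proteins in splice site choice, and HNRNPA2B1 also sorts RNA for transport in neurons. Hnrnpa1 (ENSMUSG00000046434, mm10 chromosome 15, 103240432 to 103246692, plus strand) was at 1479, 1491 and 1424 CPM in mutant pools and 1400, 1433 and 1652 CPM in wild-type pools. All 3 mutant pools lay inside the wild-type range, and the log2 fold change was -0.03 (SE 0.0775, interval -0.194 to 0.135, edgeR adjusted p = 0.855). Hnrnpa2b1 (ENSMUSG00000004980, chromosome 6, 51460932 to 51469894, minus strand) was at 847, 885 and 759 CPM in mutant pools and 718, 852 and 906 CPM in wild-type pools. Its log2 fold change was 0.01 (SE 0.0901, interval -0.182 to 0.201, edgeR adjusted p = 0.965), again with the mutant pools inside the wild-type range. The sign reversed under 1 of 20 alternatives for Hnrnpa1 (0.0487 without wild-type replicate 3) and under 5 of 20 for Hnrnpa2b1. The lowest Hnrnpa1 value was -0.0952, after the length and GC correction. Within a pool Hnrnpa1 had 1.75, 1.68 and 1.88 counts per count of Hnrnpa2b1 in mutant heads and 1.95, 1.68 and 1.82 in wild-type heads. The mean log2 ratio differed by -0.04 (exact permutation test over pools, two-sided, p = 0.7), and the groups overlapped.

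Hnrnpc encodes the C1 and C2 proteins, which form the tetramers of the core hnRNP particle and bind runs of U in nascent RNA. The gene (ENSMUSG00000060373, chromosome 14, 52073377 to 52104028, minus strand) was at 685, 706 and 672 CPM in mutant pools and 568, 572 and 655 CPM in wild-type pools. Every mutant pool was above every wild-type pool, with wild-type replicate 3 closest to them. The log2 fold change was 0.20 (SE 0.0759, interval 0.0395 to 0.361), with an unadjusted p of 0.0178 and an adjusted p of 0.128 by edgeR's quasi-likelihood test. Hnrnpk encodes a KH-domain protein that binds C-rich single strands and acts in transcription as well as in RNA processing; in humans its loss of function causes Au-Kline syndrome, a disorder with distinctive facial features. It (ENSMUSG00000021546, chromosome 13, 58391142 to 58403343, minus strand) was at 1635, 1629 and 1650 CPM in mutant pools and 1395, 1380 and 1608 CPM in wild-type pools. The mutant pools were nearly level (coefficient of variation 0.667%, against 8.71% in wild-type pools) and all above the wild-type pools. The log2 fold change was 0.16 (SE 0.076, interval 0.00362 to 0.326), with an edgeR unadjusted p of 0.0456 and adjusted p of 0.204. Both genes passed as higher without wild-type replicate 3, with log2 fold changes of 0.27 and 0.24 and edgeR adjusted p of 0.0198 and 0.0294, in a fit that called 1810 genes in all. Neither passed under any of the other alternatives tried, for which the edgeR, DESeq2 or limma adjusted p reached 0.332 for Hnrnpc and 0.491 for Hnrnpk.

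Hnrnpc and Hnrnpk were each other's nearest member in profile over the 6 pools (Euclidean distance 0.0788 between centred log2 CPM), and Hnrnph1 and Hnrnpu likewise (0.0702). The promoters of Hnrnpc, Hnrnpk and Hnrnpu are printed because these genes stand at either end of the members' log2 fold changes, the first pair at the top and Hnrnpu at the bottom. Each runs from 250 bases before to 50 bases after the annotated start (RefSeq, GRCm38.p6), 5′ to 3′ on the gene's strand, and capitals mark the letters CCAAT on either strand (ATTGG where they lie on the other strand).
Hnrnpc promoter, chr14:52103972-52104271, minus strand: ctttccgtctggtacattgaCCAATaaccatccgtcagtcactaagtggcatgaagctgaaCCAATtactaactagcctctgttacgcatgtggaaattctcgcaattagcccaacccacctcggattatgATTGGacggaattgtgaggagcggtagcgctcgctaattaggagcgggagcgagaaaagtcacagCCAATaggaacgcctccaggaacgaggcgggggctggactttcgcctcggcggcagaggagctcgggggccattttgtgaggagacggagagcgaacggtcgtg
Hnrnpk promoter, chr13:58402068-58402367, minus strand: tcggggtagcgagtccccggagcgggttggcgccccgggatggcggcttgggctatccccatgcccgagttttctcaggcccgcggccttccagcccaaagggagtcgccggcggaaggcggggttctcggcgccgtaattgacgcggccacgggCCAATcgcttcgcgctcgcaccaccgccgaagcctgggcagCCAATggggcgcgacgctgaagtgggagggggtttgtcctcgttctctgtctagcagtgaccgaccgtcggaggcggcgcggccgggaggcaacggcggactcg
Hnrnpu promoter, chr1:178337766-178338065, minus strand: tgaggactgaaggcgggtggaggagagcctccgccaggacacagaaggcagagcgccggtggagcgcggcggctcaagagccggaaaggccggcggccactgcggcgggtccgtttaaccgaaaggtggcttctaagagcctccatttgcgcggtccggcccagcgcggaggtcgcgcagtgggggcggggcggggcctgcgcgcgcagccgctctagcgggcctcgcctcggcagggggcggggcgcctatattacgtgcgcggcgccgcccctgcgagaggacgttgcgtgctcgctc
RefSeq promoters were found for 10 of 10 members, 18 windows of 300 bases counting alternative starts. CCAAT was in 10 of the 18 windows and in at least 1 window of 6 of the 10 genes, beside 37.4% of all 32851 promoters of that length. That share is per window, so it compares with the 10 of 18 and not with the 6 of 10. Hnrnpf and Hnrnph1 have the most windows, and some windows of the same gene overlap, so the same letters can count more than once. The Hnrnpu window holds no CCAAT, nor do those of Hnrnpd, Hnrnpdl and Hnrnpm, whose log2 fold changes were of both signs. Of other letters searched on both strands, GGGCGG was in 12 of 18 windows (35.7% of all promoters), CGGAAG in 8 (16.9%), TGACGT in 4 (7.5%), CACGTG in 3 (7.2%) and TATAAA in 1 (13.6%). No motif contains another, though GGGCGG and CGGAAG can share bases. The windows held 7 to 45 CG dinucleotides, against a median of 7 over all promoters. A match is a description of the letters and no binding was measured.

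Hnrnpd and Hnrnpdl are paralogs that lie close together on chromosome 5. HNRNPD, also called AUF1, binds AU-rich elements and speeds or slows the decay of messages that carry them, and HNRNPDL is a nuclear RNA-binding protein closely related to it. Hnrnpd (ENSMUSG00000000568, 99955935 to 99978938, minus strand) was at 192, 212 and 172 CPM in mutant pools and 174, 229 and 234 CPM in wild-type pools. It was the least abundant member and the least precise, with a log2 fold change of -0.14 (SE 0.112, interval -0.388 to 0.0985, edgeR adjusted p = 0.472) and overlapping groups. The estimate was -0.27 without wild-type replicate 1 (edgeR adjusted p = 0.0507), -0.08 and -0.07 without wild-type replicates 2 and 3, and -0.07 without mutant replicate 3. Hnrnpdl (ENSMUSG00000029328, 100033577 to 100039664, minus strand) was at 439, 420 and 418 CPM in mutant pools and 356, 405 and 426 CPM in wild-type pools. Its log2 fold change was 0.10 (SE 0.0783, interval -0.0611 to 0.271, edgeR adjusted p = 0.448), also with overlap; among the 4 pools with Y-linked reads it was 0.05, and leaving out wild-type replicate 1 gave 0.04 and replicate 3 gave 0.16. Within a pool Hnrnpdl had 2.28, 1.98 and 2.43 counts per count of Hnrnpd in mutant heads and 2.04, 1.77 and 1.82 in wild-type heads. The mean log2 ratio was 0.25 higher in mutant heads (exact permutation test, two-sided, p = 0.2), and the lowest mutant ratio lay under the highest wild-type ratio.

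Hnrnpf and Hnrnph1 encode close relatives that bind runs of G near regulated exons. Hnrnpf (ENSMUSG00000042079, chromosome 6, 117900324 to 117925622, plus strand) was at 383, 382 and 375 CPM in mutant pools and 347, 322 and 365 CPM in wild-type pools. All mutant pools were above all wild-type pools, and the log2 fold change was 0.14 (SE 0.0728, interval -0.0136 to 0.295, edgeR adjusted p = 0.26). Hnrnph1 (ENSMUSG00000007850, chromosome 11, 50376990 to 50386528, plus strand) was at 740, 734 and 682 CPM in mutant pools and 691, 811 and 827 CPM in wild-type pools. Wild-type replicate 1 lay below mutant replicates 1 and 2, so the groups overlapped, and the log2 fold change was -0.11 (SE 0.0807, interval -0.283 to 0.0595, edgeR adjusted p = 0.432). It was -0.19 without wild-type replicate 1, and -0.07 and -0.06 without wild-type replicates 2 and 3. Hnrnph1 had 1.93, 1.92 and 1.82 counts per count of Hnrnpf in mutant pools and 1.99, 2.52 and 2.26 in wild-type pools. The ratio was lower in every mutant pool, by 0.251 on the log2 scale (mean log2 ratio 0.917 ± 0.0489 in mutant and 1.17 ± 0.171 in wild-type heads, SD, n = 3 each; exact permutation test, two-sided, p = 0.1, the smallest that 3 against 3 allows). The 3 ratios of paralogs form one family of comparisons, and with 3 pools against 3 the exact permutation test cannot give a p below 0.1 for any of them.

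**Figure D3:**
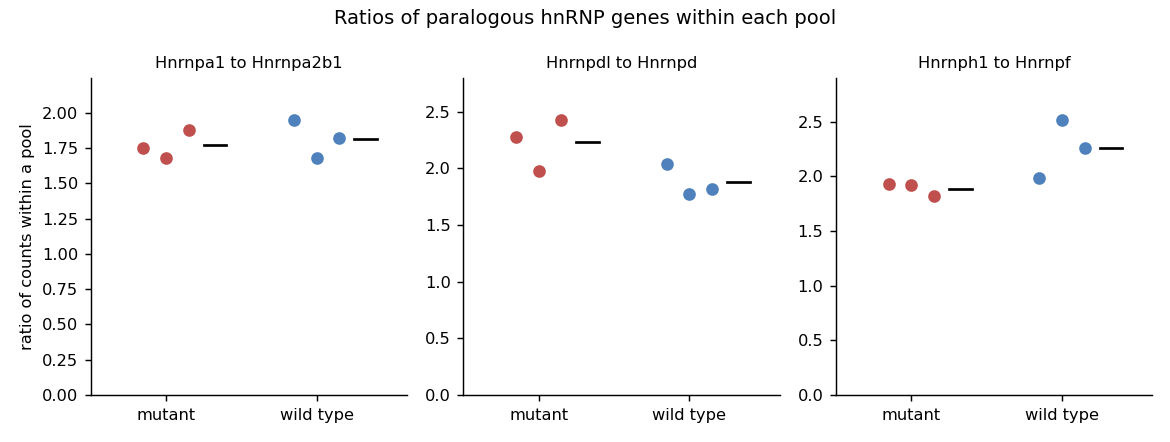
Counts of one paralog per count of the other within each pool (vertical axes, from 0), mutant left and wild type right, with bars at the means. The Hnrnph1 to Hnrnpf ratio is 1.82 to 1.93 in mutant pools and 1.99 to 2.52 in wild-type pools; the other 2 ratios overlap.

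Hnrnpm encodes a splicing regulator that binds GU-rich elements. The gene (ENSMUSG00000059208, chromosome 17, 33646233 to 33686860, minus strand) was at 478, 518 and 479 CPM in mutant pools and 558, 504.2 and 567 CPM in wild-type pools. Mutant replicate 2 was above wild-type replicate 2, so the groups overlapped, and the log2 fold change was -0.14 (SE 0.0748, interval -0.303 to 0.0141, edgeR adjusted p = 0.261). Hnrnpu encodes scaffold attachment factor A, which ties chromatin-bound RNA to the nuclear scaffold and takes part in splicing through the U2 particle; in humans its loss of function causes a developmental and epileptic encephalopathy. It (ENSMUSG00000039630, chromosome 1, 178321108 to 178337797, minus strand) was at 1493, 1520 and 1425 CPM in mutant pools and 1430, 1749 and 1732 CPM in wild-type pools. Wild-type replicate 1 sat among the mutant pools, the other wild-type pools above them, and the log2 fold change was -0.15 (SE 0.0829, interval -0.322 to 0.0295, edgeR adjusted p = 0.307). It was -0.23 without wild-type replicate 1 (edgeR adjusted p = 0.0532) and -0.09 without wild-type replicate 2. Hnrnpm and Hnrnpu have the longest merged exons of the members, 7956 and 11599 bases, and fall in the longest of 5 equal classes of tested genes. In that class 1.29% of genes passed as higher and 10.4% as lower, against 3.07% higher and 1.07% lower in the shortest class. After the length and GC correction the log2 fold changes were -0.07 for Hnrnpm and -0.08 for Hnrnpu, against -0.21 for Hnrnph1 and 0.16 for Hnrnpk.

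Ratios within a library do not depend on how libraries are scaled, and over all pairs of members 21 of 45 did not overlap between mutant and wild-type pools. That is 46.7% of pairs, beside 37.4% of the 451725 pairs among the 951 genes at or above the level of the lowest member. The widest differences set Hnrnpc against Hnrnpm (0.35 on the log2 scale), Hnrnpu (0.34), Hnrnpd (0.34) and Hnrnph1 (0.31), and Hnrnpk against Hnrnpm (0.31) and Hnrnpu (0.31), each a ratio that was higher in mutant heads and did not overlap. Hnrnpk against Hnrnpd differed as much (-0.31 for Hnrnpd over Hnrnpk) but overlapped. Hnrnpc and Hnrnpu were each in 6 of the non-overlapping pairs, the most of any member, and Hnrnpd in 2, the fewest. The ratios do keep any trend on exon length and GC content. Hnrnpm and Hnrnpu, in several of the widest pairs, have the longest merged exons of the members. Their log2 fold changes were smaller in size after the length and GC correction, as given above, and the pairs were not counted again after it. Pairs share genes and pools, so these counts are a description.

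The members varied less among mutant pools than among wild-type pools. The coefficient of variation was larger in wild-type heads for 10 of 10 members, with medians of 3.03% in mutant and 9.09% in wild-type heads. The wild-type value was the larger for 77.7% of the 951 genes at that level and for 64.9% of all genes, and no test of a difference in spread was made. In 7 of 10 members (all but Hnrnpf, Hnrnpk and Hnrnpm) the pool with 1 Y-linked count was the lowest of its genotype in both genotypes, beside 25.4% of genes at that level and 18.9% of all genes. Among the 4 pools with Y-linked reads the difference of log2 CPM, mutant minus wild type, was 0.18 for Hnrnpc, 0.13 for Hnrnpk and -0.21 for Hnrnpu. Between the remaining pair of pools it was 0.24 for Hnrnpc, 0.24 for Hnrnpk and -0.01 for Hnrnpu. Over the 6 pools the tested genes nearest to the members' mean profile were Yap1 (distance 0.0359), Cttnbp2nl (0.0457), Cdc42se2 (0.0532), Tnks2 (0.0532) and Smc3 (0.0548).

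**Figure D4:**
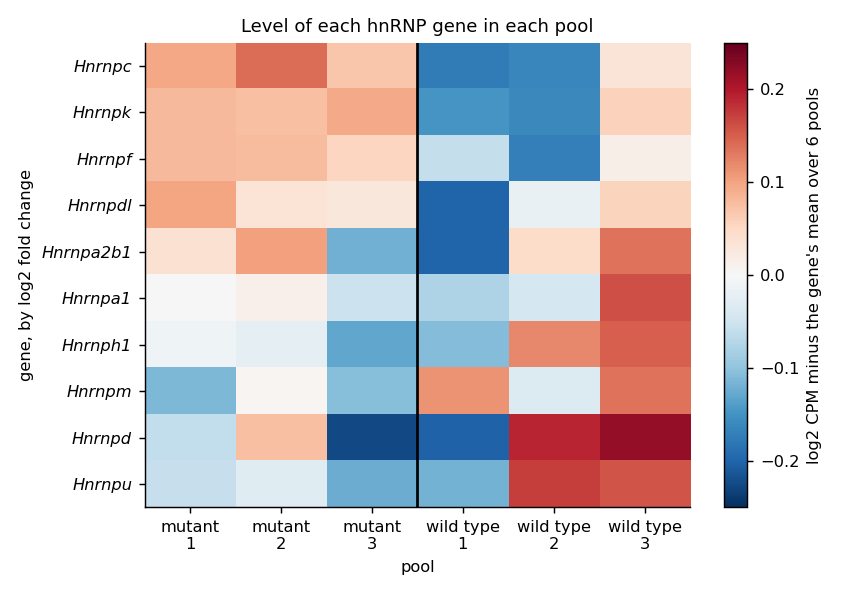
Log2 CPM of each hnRNP gene minus its mean over 6 pools (colour), pools across with mutant left of the line, genes down by log2 fold change. Hnrnpc and Hnrnpk are above their mean in all mutant pools and below it in wild-type replicates 1 and 2; Hnrnph1, Hnrnpd and Hnrnpu are highest in wild-type replicates 2 and 3.

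Because no source used here names the counting program or its handling of reads that fit several places, near-identical copies of the members were looked for by shared 31-base words. Hnrnpf shared 46% of its words with other genes, Hnrnpa1 29.9%, Hnrnpk 17.1% and Hnrnpc 11.9%, mostly with processed pseudogenes, while Hnrnpm, Hnrnpu and Hnrnpd shared at least 100 words only with genes that overlap them. The Hnrnpa1 pseudogene Gm10052 (chromosome 9, 123689233 to 123690192) matched the coding sequence of Hnrnpa1 over 960 of 960 bases and held 797 counts over all pools, 0.915% of those of Hnrnpa1. The copy with the most counts was Gm7964 (chromosome 7, 83755904 to 83757281), a pseudogene of Hnrnpk that matches it at 1367 of 1378 aligned bases. A stretch of the coding part of each shows how few bases separate them (positions 823 to 882 of the Hnrnpk transcript, 5′ to 3′, GENCODE M21 transcripts, mismatches in capitals).
Hnrnpk: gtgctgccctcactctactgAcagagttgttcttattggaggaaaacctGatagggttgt
Gm7964: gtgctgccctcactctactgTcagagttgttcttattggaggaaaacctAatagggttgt
Gm7964 held 614, 519 and 461 counts in mutant pools and 537, 339 and 672 counts in wild-type pools, 3.45% of those of Hnrnpk. It did not pass, with a log2 fold change of 0.10 (SE 0.101) and an edgeR adjusted p of 0.61. Adding the counts of all copies left the difference of Hnrnpk at 0.17 on the log2 scale, that of Hnrnpc at 0.20 and that of Hnrnpa1 at -0.03. That of Hnrnpf went from 0.143 to 0.139 and that of Hnrnph1 from -0.108 to -0.119. Reads that a counter drops for fitting several places would be in neither gene. These sums therefore cannot show what shared sequence does to the members' values. Hnrnph1 shared 122 words with Setd1b, a histone methyltransferase gene of unlike function, which passed as lower (log2 fold change -0.53, SE 0.137, edgeR adjusted p = 0.0306). That call was lost under limma-voom, the length and GC correction, the 4 pools with Y-linked reads and 4 of the 6 fits without 1 pool. Hnrnpm shares 14.7% of its exonic bases with March2 on the same strand, and Hnrnpf, Hnrnpk, Hnrnpu and Hnrnpd share 5.1 to 13.5% with a gene on the opposite strand. March2 (log2 fold change 0.16) and Cox20, the neighbour of Hnrnpu (0.05), did not pass, with edgeR adjusted p of 0.519 and 0.906. Reads in the bases that Hnrnpm and March2 share cannot be assigned by strand, and for the other 4 members the use of strand is not stated.

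Of 27 other genes counted with the hnRNP family or close to it, 1 passed as higher and 1 as lower, or 7.41% beside 6.52% of all genes tested, with a median log2 fold change of 0.00, and the other 25 ran from -0.86 to 0.21. Unadjusted edgeR p-values were under 0.05 for 9 of the 27, beside 23.2% of all genes. Mutant and wild-type pools did not overlap for 11 (40.7%), beside 28.3% of all genes and 37.6% of the 951 genes at the members' level. Ptbp2, the neuronal paralog of the polypyrimidine tract binding protein, was at 260, 266 and 250 CPM in mutant pools and 165, 196 and 215 CPM in wild-type pools. It was higher in all mutant pools, by 0.43 on the log2 scale (SE 0.089, edgeR adjusted p = 0.0103), a call that was lost after the length and GC correction (0.34) and without mutant replicate 1 (0.43). Taf15, which encodes an RNA-binding protein, was at 43.7, 44 and 38.2 CPM in mutant pools and 49.4, 71.5 and 59.3 CPM in wild-type pools. Taf15 fell by 0.50 on the log2 scale (SE 0.12, edgeR adjusted p = 0.0242), but did not pass without wild-type replicate 2 (-0.36) or without mutant replicate 1 (-0.535), 2 (-0.534) or 3 (-0.447). The count of the family list was 0 with mutant replicate 1 left out, 1 with mutant replicate 2 or 3 or wild-type replicate 2 left out, 4 with wild-type replicate 1 left out and 5 with wild-type replicate 3 left out.

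Of 28 genes whose products work with hnRNPs, as import receptors, modifying enzymes, helicases or matrix and paraspeckle proteins, 1 passed as higher and 7 as lower, or 28.6% beside 6.52% of all genes tested and 7.99% of genes at the members' level. Some partner genes, such as Cirbp, lay below that level. By exon length, 4.14% of genes in the shortest class and 11.6% in the longest passed. The partner list was chosen with earlier results of these data known. The median log2 fold change was -0.08, and 0.01 after the length and GC correction, which called 2 partner genes higher and 5 lower. Unadjusted edgeR p-values were under 0.05 for 14 of the 28, beside 23.2% of all genes. The genotypes did not overlap for 13 (46.4%), beside 28.3% of all genes and 37.6% of genes at the members' level. Rbm3, a cold-induced RNA-binding protein, was at 335, 340 and 351 CPM in mutant pools and 251, 279 and 247 CPM in wild-type pools. It rose by 0.40 on the log2 scale (SE 0.0737, edgeR adjusted p = 0.00432) and passed under all 20 alternatives tried. The threshold of 0.1 is among these and cannot end a call made at 0.05. Khsrp, a KH-domain protein of message decay and microRNA processing, was at 219, 228 and 227 CPM in mutant pools and 298, 286 and 269 CPM in wild-type pools, and fell by 0.34 on the log2 scale (SE 0.0715, edgeR adjusted p = 0.0108). The RNA helicase genes Ddx17 and Dhx9 fell by 0.28 and 0.34 on the log2 scale, and their edgeR adjusted p were 0.0214 and 0.0341. Tnpo2, a transportin of the kind that carries HNRNPA1 into the nucleus, fell by 0.28 (edgeR adjusted p = 0.0286), and the paraspeckle gene Sfpq by 0.37 (edgeR adjusted p = 0.0288), both on the log2 scale. The mutant and wild-type pools did not overlap in any of these 6 genes. The calls of Khsrp, Ddx17, Tnpo2, Sfpq and Dhx9 were lost with mutant replicate 1 left out, where their log2 fold changes were -0.32, -0.27, -0.25, -0.41 and -0.33. They were lost too with mutant replicate 2 left out, at -0.34, -0.27, -0.26, -0.38 and -0.39 in the same order. Leaving out mutant replicate 3 also ended those of Ddx17, Sfpq and Dhx9. Leaving out wild-type replicate 2 ended those of Ddx17, Tnpo2, Sfpq and Dhx9, and leaving out wild-type replicate 3 those of Sfpq and Dhx9. Over these fits the log2 fold changes ran from -0.35 (Sfpq) to -0.27 (Ddx17 and Tnpo2). Dhx9 also missed the threshold by limma-voom (-0.33, adjusted p = 0.0517). The other 2 that passed as lower were Safb and Msi1. Neither was called in the 4 pools with Y-linked reads, after the length and GC correction, or with any 1 mutant pool or wild-type replicate 2 left out, and Msi1 was not called by DESeq2 or limma-voom. The 20 that did not pass ran from -0.24 to 0.30. Relatives of the lower genes were among them. The helicase gene Ddx5 was at 0.16, with all mutant pools above all wild-type pools. The paraspeckle genes Nono and Pspc1 were at 0.005 and 0.20, and the transportin gene Tnpo1 at 0.08. Safb2 (-0.24) and Msi2 (-0.08) had the sign of Safb and Msi1. The lower calls are thus of single genes and not of helicase, paraspeckle or transportin genes as classes. The count of 8 was 1 with mutant replicate 1 or 2 left out, 3 with mutant replicate 3 left out and 2 with wild-type replicate 2 left out. No test of the difference between the lists was made.

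**Figure D5:**
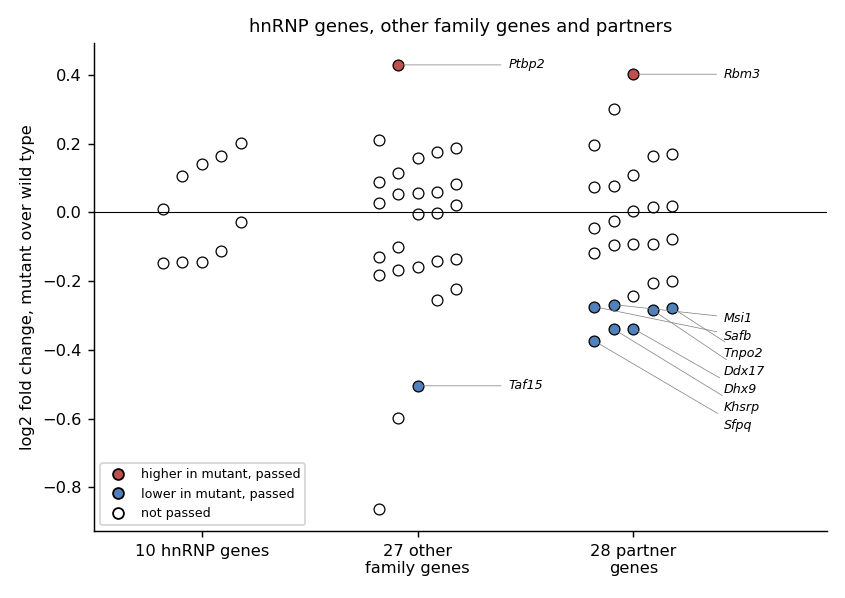
Log2 fold changes (vertical axis, mutant over wild type) of the 10 hnRNP genes, 27 other family genes and 28 partner genes; filled points passed the edgeR test at an adjusted p under 0.05 and carry their names. No hnRNP gene of the first column is filled, with 2 of 27 and 8 of 28 filled in the others, beside 6.52% of all genes tested; the 8 were 1 to 9 with 1 pool left out, and no test compared the lists.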

How the data were processed

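Gene counts were made by the authors from total RNA libraries (RNeasy micro and TruSeq Standard Total RNA kits, per the labels' protocols) and deposited as raw whole-number counts, 1 file for each of 6 pools, 7420956 to 12251910 counts in mutant and 6930827 to 11797020 in wild-type pools. Per the submitters' processing notes they used mm10; no source used here gives their aligner, counter, annotation or strand setting. Of 54532 IDs, 54495 matched GENCODE M21 (GRCm38), which gave symbols, coordinates, transcripts and merged exon lengths; promoters came from RefSeq (GRCm38.p6).

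Genes were kept by edgeR's filterByExpr (14008), scaled by TMM and tested by edgeR's quasi-likelihood test (robust, two-sided) with Benjamini-Hochberg adjustment over all genes and a threshold of 0.05. CPM are TMM-normalised, and RPKM divide them by merged exon length. The standard error is the size of the log2 fold change over the root of F. Count ratios had a pseudocount of 0.5. Pools of a genotype differed beyond sampling noise (chi-square over its degrees of freedom 2.81 to 3.5 among mutant and 5.48 to 9.19 among wild-type pools) and each counted as a replicate. The edgeR fit was also run on counts simulated from its own means and dispersions, and the outcome is not given here. Those counts held no shared trend of pool or exon length, so that run cannot tell how the fit behaves under such trends. Alternatives were DESeq2, limma-voom, other scaling and filters, no robust estimation, no structured RNA, a replicate block, Y-linked reads as covariate, the 4 pools with Y-linked reads, a length and GC correction (splines, 4 degrees of freedom), a threshold of 0.1, a pseudocount of 5 and each pool left out.

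The members, the lists of 27 family and 28 partner genes and the marker lists were chosen with earlier results of these data known. Named genes are the members, Sf3b4, from each list up to 6 passing genes ranked by p, the 5 nearest profiles and each member's gene with most shared words (31 bases, at least 100); Safb and Msi1 were named after their values were seen. Versions were edgeR 4.0.16, DESeq2 1.42.0 and limma 3.58.1 under R 4.3.3, and Biopython 1.88 and matplotlib 3.10.9 under Python 3.11.15.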

Additional observations from a re-analysis of the deposited data

How the results depend on the processing

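No hnRNP member passed under any alternative other than leaving out wild-type replicate 3, so the members' count over fits without 1 pool was 0 to 2. The count over all genes was 914, but 1550 at a threshold of 0.1, 1647 with Y-linked reads as covariate, 535 when the analysis was limited to the 4 pools with Y-linked reads, and 230 to 1810 without 1 pool. The family count of 2 became 4 with library size alone, 4 at a threshold of 0.1, 5 with Y-linked reads as covariate, 4 with the length and GC correction and 0 to 5 without 1 pool. The partner count of 8 was 1 to 9 without 1 pool. Deviations of same-numbered pools had correlations of -0.161, 0.0515 and -0.0598. No mutant pool correlated best with its own number (the best were 0.204, 0.112 and 0.274). The 0.274 joined mutant replicate 3 and wild-type replicate 1, the pools with 1 Y-linked count. These correlations cannot show whether pools of the same number shared a litter or batch. With the replicate block 694 genes passed in all, 0 members and 5 partner genes (without Tnpo2, edgeR adjusted p = 0.0565, Safb and Msi1). Paired by number, the log2 ratio of Hnrnph1 to Hnrnpf differed by -0.251. With groups of equal size the mean paired difference must equal the unpaired one, so this is no check of that ratio. Log2 fold changes near 0 changed sign: Hnrnpa1 ranged from -0.0729 to 0.0487 without 1 pool; Hnrnpa2b1 was -0.0144 with library size alone, -0.0236 in the 4 pools and -0.0803 to 0.0819 without 1 pool. Of genes with near profiles or shared sequence, Yap1 was 0.0534 and Smc3 -0.00634 with the length and GC correction, Cttnbp2nl -0.00568 and Smc3 -0.000127 with library size alone, and Tnks2 -0.00268, Smc3 -0.00689, Gm7964 -0.0246 and Cox20 -0.238 in the 4 pools, with Cox20 at -0.0834 after the correction. Without 1 pool the ranges were -0.0691 to 0.0433 for Yap1, -0.0234 to 0.0663 for Cttnbp2nl, -0.0119 to 0.0814 for Cdc42se2, -0.0196 to 0.109 for Tnks2, -0.0276 to 0.1 for Smc3 and -0.138 to 0.172 for Cox20. The cause was not tested. Depth limits the copies with few counts more than the members, which held 1268 to 20114 counts per pool.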
